A study of Homo sapiens with 6 samples.

Results

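The levels of 10 transcription factor and immediate-early genes, each 1 row of the deposited table, were followed: the AP-1 subunits FOS, FOSB, FOSL1, FOSL2, JUN, JUNB and JUND, and the immediate-early genes EGR1, MYC and IER3. They were chosen by name, with earlier results of these data known, and each was found by its Ensembl identifier among 40295 identifiers. The related gene lists below were chosen in the same way. Shares of members or list genes set beside those of all genes are therefore descriptive only. The cells were HDQ-P1, an established human cancer line. In the labels 3 replicate libraries came from cells given Y-320 at 1 µM for 48 h, and the other 3 came from cells left untreated. Y-320 is a phenylpyrazoleanilide known for blocking IL-17 production by T cells. Both groups were grown in high glucose DMEM with fetal bovine serum, and no solvent control is described. The experiment used a single cell line, dose and time, and the labels do not say whether replicates were separate cultures, so the p-values below measure the spread between these libraries, which may be technical.

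AP-1 is a dimer of basic leucine zipper proteins. JUN proteins pair with each other or with a FOS protein, while FOS proteins need a JUN partner, and the subunit mix changes which genes the dimer turns on or off. FOS, JUN, EGR1 and IER3 are immediate-early genes: serum, growth factors and stress switch on their transcription through MAP kinases with no need for new protein, and the messages are short-lived. In breast and other epithelial cancers FOSL1 and JUN are known for driving invasion genes, and MYC for driving ribosome production and growth.

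The promoters of 7 of the 10 genes were in the RefSeq table used (build GRCh38.p14). FOSL1, MYC and IER3 had no entry. In the 250 bases before each start, 7 motifs were searched on both strands. The stretches printed here run from a short way before the first motif to the start, 5′ to 3′ on the gene's strand, with the motif in capitals. They are shown because these windows differ in which of the 7 motifs they hold. Sites further upstream were not searched, so a motif missing here may lie outside the window.
FOS, a TATA box, chr14:75278775-75278827, plus strand: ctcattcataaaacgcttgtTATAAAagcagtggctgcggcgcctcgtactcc
JUN, a JUN-type AP-1 site, chr1:58784048-58784134, minus strand: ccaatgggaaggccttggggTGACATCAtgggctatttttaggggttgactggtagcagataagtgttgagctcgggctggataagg
JUND, a cAMP response element, chr19:18281623-18281842, minus strand: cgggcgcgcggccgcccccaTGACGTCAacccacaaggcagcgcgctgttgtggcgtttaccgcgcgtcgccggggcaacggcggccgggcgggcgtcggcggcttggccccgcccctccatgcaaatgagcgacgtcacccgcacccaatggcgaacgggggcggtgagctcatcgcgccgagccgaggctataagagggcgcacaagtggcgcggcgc
EGR1, 2 CArG boxes, the sites serum response factor binds, chr5:138465354-138465478, plus strand: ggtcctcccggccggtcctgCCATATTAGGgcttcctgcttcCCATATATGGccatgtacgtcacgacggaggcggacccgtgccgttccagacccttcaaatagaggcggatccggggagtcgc

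Among 35116 promoters of the same length, TGACATCA was in 2.37%, TGACGTCA in 1.65%, the CArG box in 1.16% and TATAAA in 10.7%. TATAAA was in 3 of the 7 windows, those of FOS, FOSB and JUNB. No member's window held the AP-1 site TGAGTCA (4.2% of all promoters), the EGR site GCGTGGGCG (0.72%) or the E-box CACGTG (6.34%). A match describes the letters only.

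Total estimated counts ran from 21045401 to 22740535 a library. Y-320 moved the transcriptome broadly: of 16580 genes tested with edgeR's quasi-likelihood test, 51.5% passed an adjusted p of 0.05, with 26.2% higher and 25.4% lower. The median log2 fold change of all genes was 0.00, but the scaling between libraries (TMM) sets the typical gene near no change. Genes said to rise or fall did so relative to the other RNA of the library, and RNA per cell was not measured in these libraries. Epithelial markers were abundant in every library, and 5 of 6 fell and 1 rose, their summed level going from 10915.5 to 11424.6 CPM (counts per 1e6 reads after normalization) in untreated cells to between 6833.6 and 6895.2 CPM in Y-320. Of 4 leukocyte markers, 1 of 2 tested rose (CD68, which shares 81.0% of its 31-base words with other genes), their sum going from 36.2 to 38.2 CPM up to 66.5 to 73.1 CPM, with MS4A1 at 0 and CD3E near 0. Of 4 fibroblast markers, 2 of 3 tested fell (61.9 to 82.8 CPM down to 32.9 to 44.9 CPM). Of 3 endothelial markers, 1 rose and 1 fell (17.5 to 18.9 CPM against 13.8 to 17.9 CPM). Of 3 receptor genes (ERBB2 and the hormone receptors ESR1 and PGR), 2 were tested. ERBB2, the more abundant of these, fell and ESR1 did not pass (sum of the 3 genes 196.6 to 207.7 CPM against 157.7 to 170.1 CPM). All libraries came from a single cell line, so these sums are not a measure of cell types in a mixture. The part of these markers in the results below was not tested. In bulk RNA, fewer cells with a marker and less marker RNA per cell cannot be told apart.

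AP-1 subunits were higher in Y-320. Of the 9 members that could be tested, 7 rose, 1 fell and FOS did not pass the test, where 26.2% of all tested genes rose and 25.4% fell. DESeq2 gave the same counts of members, with 40.3% of all genes past its threshold, 20.5% higher and 19.8% lower. In 7 of the 9 members all Y-320 libraries were above all untreated ones, and in 1 all were below, against 59.2% of genes whose groups did not overlap (29.8% above and 29.4% below). Of the 7 AP-1 subunits, 6 rose and 0 fell, with a median log2 fold change of 1.21. FOSL1, FOSB, JUN and JUND each passed the edgeR threshold with a log2 fold change of at least 1, as did 2.43% of all tested genes in the higher direction. IER3 was too low in the table to be tested.

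**Figure D1:**
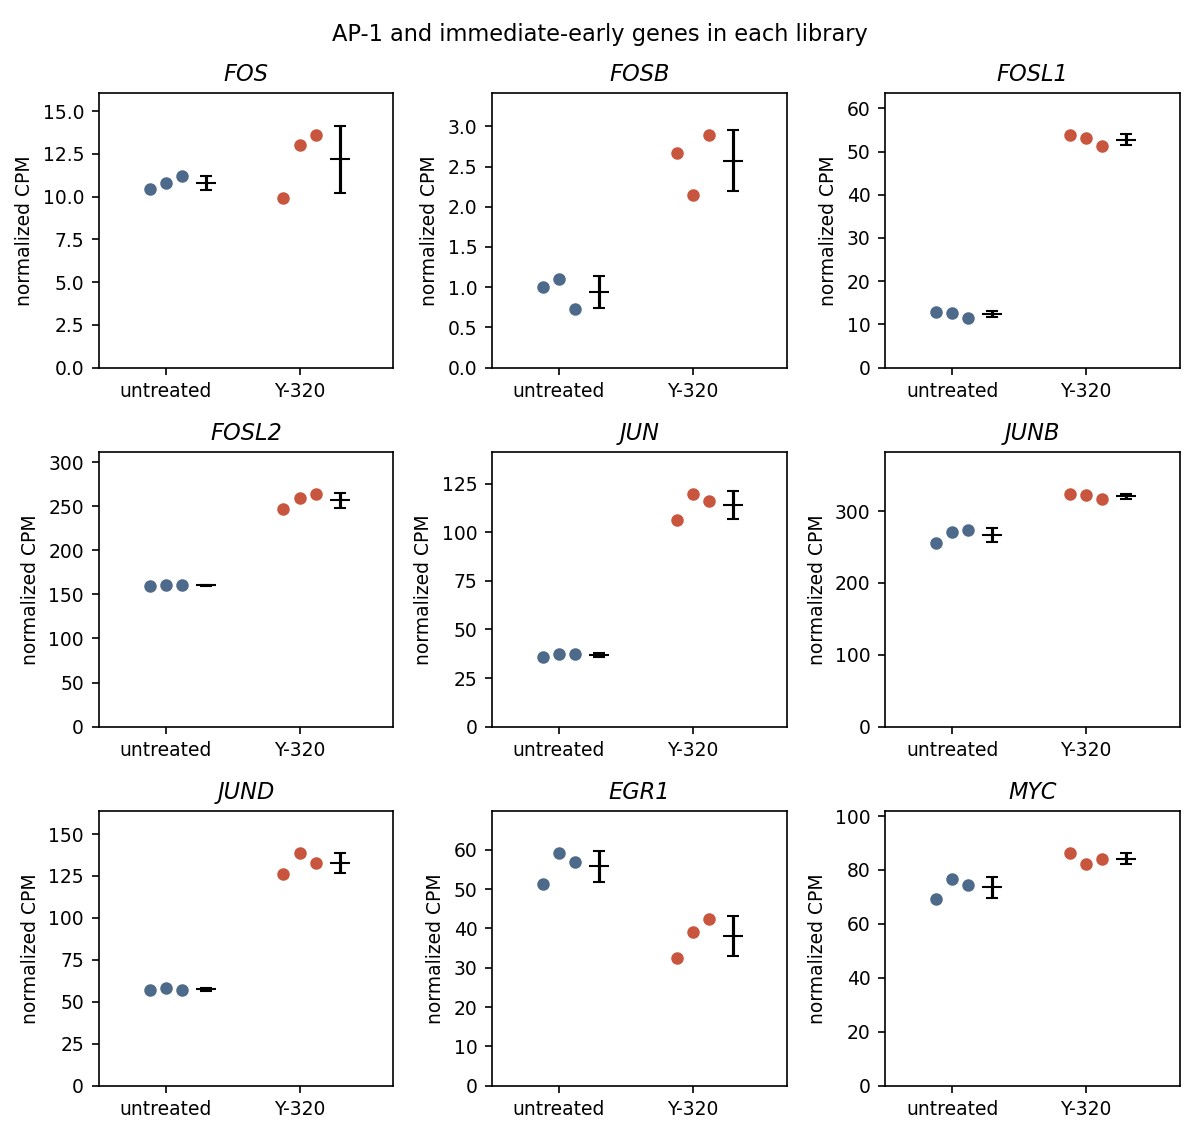
Level of each member in each library, in normalized CPM on axes that start at 0, 1 panel a gene, with the libraries as points (3 a group) and the black marks beside them as mean ± SD. Of the 7 AP-1 subunits 6 sit wholly higher in Y-320, EGR1 sits wholly lower, and the FOS groups overlap.

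FOSL1, at 65892049 to 65900573 of chr11 on the minus strand (ENSG00000175592), encodes FRA-1, a FOS protein without the strong activation domain of FOS. It stood at 12.9, 12.6 and 11.6 CPM in the untreated libraries and at 53.7, 53.2 and 51.4 CPM in Y-320. Every Y-320 library was above every untreated one. The log2 fold change was 2.09 (SE 0.049, edgeR adjusted p = 7.65e-10), a 4.27-fold rise and the largest of the members. FOSL1 ranked 55 among 4336 higher genes. It shares 6.86% of its 31-base words with other genes, most often the processed copy FOSL1P1. A small part of FOSL1 reads therefore cannot be placed.

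FOSL2, at 28392448 to 28417317 of chr2 (ENSG00000075426), encodes FRA-2. It measured 159.9, 160.3 and 161 CPM in untreated cells and 247, 259.7 and 263 CPM in Y-320. The groups did not overlap, and the log2 fold change was 0.68 (SE 0.030, edgeR adjusted p = 3.45e-08). FOSL2 was the most abundant FOS family member in both groups, and it ranked 867 among the higher genes.

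FOSB, at 45467995 to 45475179 of chr19 (ENSG00000125740), is the stimulus-induced FOS relative whose shorter product is known from long stimulation. Its level was low, with 22, 23 and 16 counts in untreated libraries and 61, 47 and 64 counts in Y-320. In CPM these were 0.997, 1.10 and 0.725 against 2.67, 2.15 and 2.89. The groups did not overlap and the log2 fold change was 1.45 (SE 0.22, edgeR adjusted p = 3.18e-04), with the largest error of the tested members.

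FOS, at 75278826 to 75282230 of chr14 (ENSG00000170345), is the founding family member and the classic serum-induced gene. It stood at 10.4, 10.8 and 11.2 CPM in untreated cells and at 9.94, 13.0 and 13.6 CPM in Y-320. The lowest library of all was Y-320 replicate 1, so the groups overlapped. The log2 fold change was 0.17 (SE 0.11, edgeR adjusted p = 0.222), and it was 0.30 with an adjusted p of 0.00873 without Y-320 replicate 1.

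JUN rose most of its family. It lies at 58776845 to 58784048 of chr1 on the minus strand (ENSG00000177606), has 1 exon, and encodes c-Jun, the subunit that JNK phosphorylates. Levels were 35.8, 37.3 and 37.4 CPM untreated and 106, 119.6 and 116 CPM in Y-320, with no overlap. The log2 fold change was 1.63 (SE 0.049, edgeR adjusted p = 3.08e-09), and JUN ranked 123 among the higher genes.

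JUND, at 18279694 to 18281622 of chr19 on the minus strand (ENSG00000130522), is the family member expressed in resting cells. It stood at 56.9, 58.2 and 56.9 CPM untreated and 126, 138 and 133 CPM in Y-320. The groups were well apart, with a log2 fold change of 1.21 (SE 0.038, edgeR adjusted p = 4.01e-09).

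JUNB, at 12791486 to 12793315 of chr19 (ENSG00000171223), often opposes JUN and slows growth. It measured 256, 270.5 and 274 CPM untreated and 323, 322 and 317 CPM in Y-320. The groups did not overlap, but the change was small, at 0.27 (SE 0.029, edgeR adjusted p = 2.61e-05). JUNB overlaps HOOK2 on the other strand and shares 12.7% of its 31-base words with other genes. Whether counting used strand is not given in the sources used here, so reads of the overlap cannot be told apart. HOOK2 itself went from 195 to 207 CPM (log2 fold change 0.09, edgeR adjusted p = 0.0178).

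**Figure D2:**
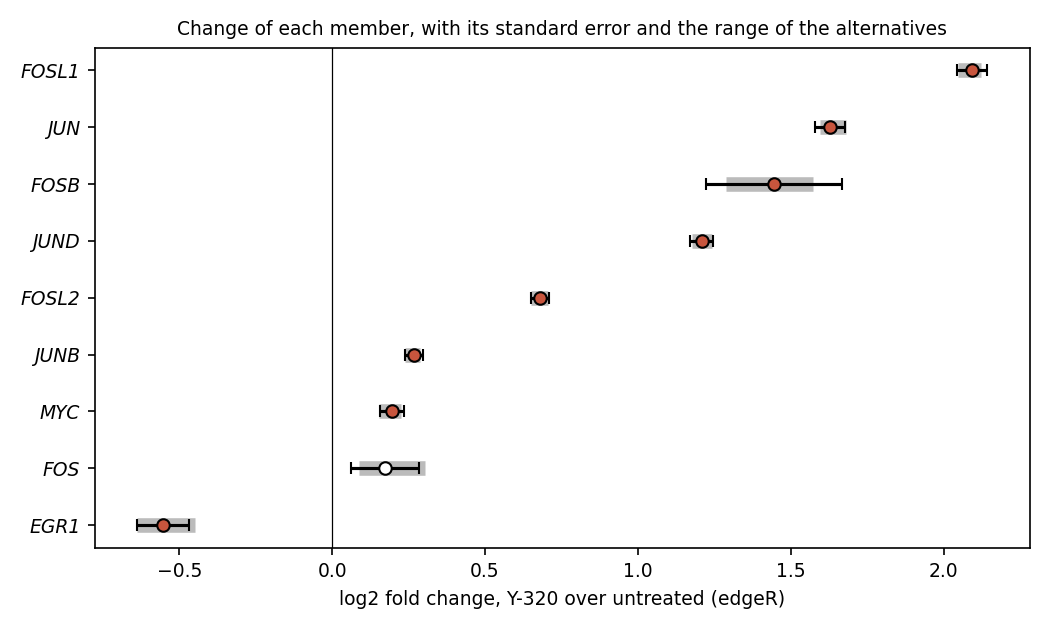
Log2 fold change of Y-320 against untreated for the 9 tested members, with points for the fitted values (filled where the adjusted p passed), bars for 1 standard error and grey bands for the range over the alternative settings. FOSL1 is highest at 2.09 and EGR1 is lowest at -0.55, and FOS is the member nearest to the line at 0.

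Levels of different genes were compared as normalized CPM per kilobase of the canonical transcript. The summed FOS family went from 36.5 ± 0.248 to 75.7 ± 1.702 CPM per kb (SD, n = 3), a ratio of 2.07 (two-sided exact permutation p = 0.1, the smallest that 3 against 3 can give). FOSL1 made up 60.6% of that increase and FOSL2 36.6%, while FOS and FOSB added 1.68% and 1.10%. As a share of the family, FOSL1 went from 19.9 ± 0.960% to 41.0 ± 1.74% (exact permutation p = 0.1), and FOSL2 from 65.4% to 50.5%. FOS went from 14.1% to 7.64%, with each Y-320 library below each untreated one. The share of FOSB overlapped between groups, at 0.682% and 0.900%.

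The summed JUN family went from 187 ± 5.70 to 279 ± 5.04 CPM per kb, a ratio of 1.495 (exact permutation p = 0.1, n = 3 a group). JUND made up 42.2% of the increase, JUNB 32.2% and JUN 25.6%. JUNB was the most abundant in both groups, but its share went from 78.0% to 62.8%. The share of JUND went from 15.9 ± 0.444% to 24.6 ± 0.711%, and that of JUN from 6.06% to 12.5%, both with no overlap (exact permutation p = 0.1 each).

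**Figure D3:**
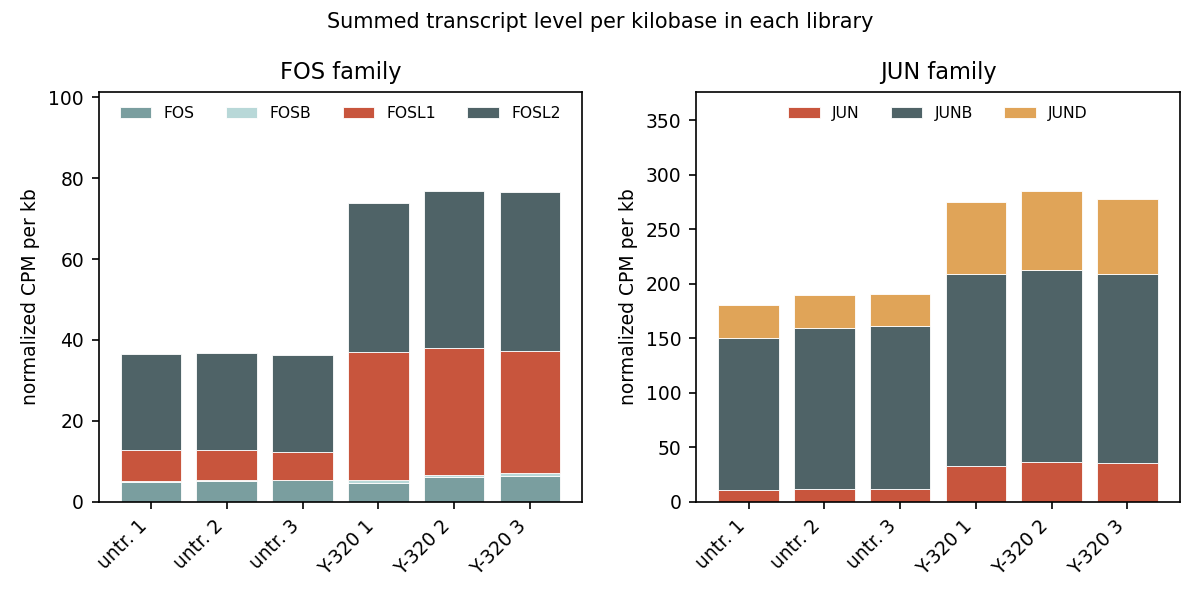
Summed level of the FOS family and of the JUN family in each library, in CPM per kilobase of the canonical transcript, with the stacked parts giving each member. The Y-320 libraries hold about 75.7 CPM per kb of FOS family RNA against 36.5, and 279 against 187 of JUN family RNA.

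On the same per-length scale, the order in untreated cells was JUNB (146 CPM per kb), JUND (29.7), FOSL2 (23.9), MYC (19.8), EGR1 (17.8), JUN (11.3), FOSL1 (7.26), FOS (5.13) and FOSB (0.249). Only MYC and EGR1 overlapped among neighbours there. In Y-320, JUN stood at 35.0 and FOSL1 between 30.2 and 31.6 CPM per kb, both above MYC at 22.6 and EGR1 at 12.1, and no neighbours overlapped.

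EGR1 was the one member that fell. It lies at 138465479 to 138469303 of chr5 (ENSG00000120738) and encodes a zinc finger activator induced by serum response factor and ELK proteins. It measured 51.4, 59.1 and 56.8 CPM untreated and 32.6, 39.1 and 42.4 CPM in Y-320, with no overlap. The log2 fold change was -0.55 (SE 0.084, edgeR adjusted p = 2.99e-04), that is 1.47-fold lower. Its promoter, printed above, holds the 2 CArG boxes, and a link between these and the fall was not tested. Of the EGR corepressors, NAB1 fell from 65.3 to 51.8 CPM (-0.33, edgeR adjusted p = 1.8e-05), and NAB2 stood at 11.9 and 10.9 CPM (-0.12, adjusted p = 0.205). The relatives EGR2, EGR3 and EGR4 were too low to be tested.

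MYC, at 127735434 to 127742951 of chr8 (ENSG00000136997), stood at 69.3, 76.8 and 74.5 CPM untreated and at 86.2, 82.1 and 84.3 CPM in Y-320. The groups did not overlap, and the log2 fold change was 0.20 (SE 0.041, edgeR adjusted p = 0.00227), the smallest change of the members that passed. MYC shares 2.65% of its 31-base words with other genes, most often CASC11 on the other strand. Of 17 tested network partners and turnover genes, 5 rose and 3 fell (median 0.02). That is 47.1% past the threshold, no more than the 51.5% of all genes. MXD1, a MAX partner that opposes MYC, rose from 8.43 to 19.6 CPM (1.21, edgeR adjusted p = 7.81e-08), and MXI1, of the same kind, from 20.7 to 30.9 CPM (0.58, adjusted p = 1.86e-06). SKP2, a ubiquitin ligase subunit that acts on MYC, fell from 84.2 to 50.9 CPM (-0.73, adjusted p = 4.7e-08), and MLXIPL, a glucose-responsive relative, from 11.8 to 8.04 CPM. The most abundant, AURKA, stood at 143 and 139 CPM (adjusted p = 0.205). PVT1 was not analysed here.

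Genes of ribosome production and growth that MYC is known to drive went both ways. Of 32 tested, 14 rose and 11 fell, with a median log2 fold change of -0.04, against 26.2% and 25.4% of all genes. HK2, the first enzyme of glycolysis, rose most, from 42.4 to 114 CPM (1.42, edgeR adjusted p = 5.49e-09). HK2 shares 15.9% of its 31-base words with other genes, most often HK2P1. The polyamine enzyme ODC1 rose from 122 to 183 CPM, and the ribosome assembly factors RRP12 and PES1 rose from 30.5 to 47.6 and from 78.4 to 112 CPM. NPM1, the most abundant of them, stood at 1878 and 1834 CPM (adjusted p = 0.107).

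IER3, at 30743199 to 30744548 of chr6 on the minus strand (ENSG00000137331), encodes a stress-induced survival protein. Its row on the primary assembly held 0 counts in 5 of 6 libraries and 14 in Y-320 replicate 2. In the genome 5 alternative sequences of chromosome 6, the HLA region haplotypes, carried a copy, and on each 1 of 2 exons (239 of 1237 bases) was identical to the primary one. For the other 9 members no identical exon was found on the alternative or other extra sequences of the assembly. The other main chromosomes were not searched, and the search does not see diverged copies such as processed pseudogenes. Rows for these copies could not be named from the tables used, so no level of IER3 is given, and a count of 0 in the primary row does not say that the gene is silent. IER3 also overlaps IER3-AS1 on the other strand and shares 34.9% of its 31-base words.

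Of 10 other AP-1 partners tested, 6 rose and 2 fell (median 0.45), against 26.2% and 25.4% of all genes. The count of higher partners was 4 with DESeq2, with upper-quartile scaling, and without untreated replicate 1 or Y-320 replicate 2. ATF3, a stress-induced JUN partner, stood at 6.43, 7.24 and 6.39 CPM untreated and at 31.3, 36.0 and 35.4 CPM in Y-320. The groups were far apart, with a log2 fold change of 2.36 (SE 0.078, edgeR adjusted p = 5.14e-09). The small MAF proteins MAFF (10.9 to 20.9 CPM) and MAFK (67.6 to 127 CPM) rose by 0.94 and 0.91. MAFK is also the most abundant of the list and shares 17.7% of its 31-base words.

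Of 27 other immediate-early genes tested, 16 rose and 7 fell (median 0.23), against 26.2% higher and 25.4% lower over all genes. With at least 10 counts required in every library, so also in the lower group, 15 rose and 7 fell. The Krüppel-like factors KLF4 and KLF6 rose from 17.5 to 58.9 and from 166 to 382 CPM (1.75 and 1.20, edgeR adjusted p = 9.02e-09 and 7.52e-10), and the repressor NFIL3 rose from 10.3 to 30.2 CPM. CCN2, the matrix protein CTGF, fell most: 51.1, 55.7 and 58.6 CPM untreated against 7.44, 7.83 and 7.94 CPM in Y-320. Its log2 fold change was -2.83 (SE 0.067, edgeR adjusted p = 7.65e-10). ZFP36L1, which speeds decay of short-lived messages and is the most abundant of these, rose from 439 to 528 CPM.

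The MAP kinase and serum response input held 37 genes, all tested, of which 13 rose and 8 fell (median 0.04). That is 56.8% of the list past the threshold, near the 51.5% of all genes. MAP2K6, a kinase of the p38 arm, fell from 22.8 to 6.66 CPM (-1.78, edgeR adjusted p = 1.02e-07), the 1 gene of the list that moved past a log2 fold change of 1 either way. MAPK7 (ERK5) rose from 26.2 to 38.4 CPM, and the p38 isoforms MAPK13 and MAPK11 rose from 83.7 to 119 and from 9.48 to 12.8 CPM. The p38 isoform MAPK14 fell slightly, from 82.1 to 76.8 CPM (-0.10, edgeR adjusted p = 0.0378), and the isoform MAPK12 did not pass (edgeR adjusted p = 0.285). The count of lower genes was 5 rather than 8 without Y-320 replicate 3.

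Of 16 tested AP-1 target genes, 9 rose and 4 fell (median 0.31), where 26.2% of all genes rose and 25.4% fell. With at least 10 counts required in every library, 8 of them rose and 4 fell. FSCN1, which bundles actin in invading cells, rose from 132 to 286 CPM (1.12, edgeR adjusted p = 2.4e-09), PLAUR, the urokinase receptor, from 27.5 to 49.7 CPM and the filament protein VIM, the most abundant, from 632 to 958 CPM. VIM shares 23.2% of its 31-base words with other genes, most often VIM-AS1. Cyclin D1 (CCND1), which drives entry to the cell cycle, fell from 501 to 260.0 CPM (-0.95, adjusted p = 2.54e-08), and the keratinocyte protein IVL fell from 6.21 to 2.19 CPM (-1.51). The metalloproteinases MMP1 and MMP9 were tested and did not pass.

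**Figure D4:**
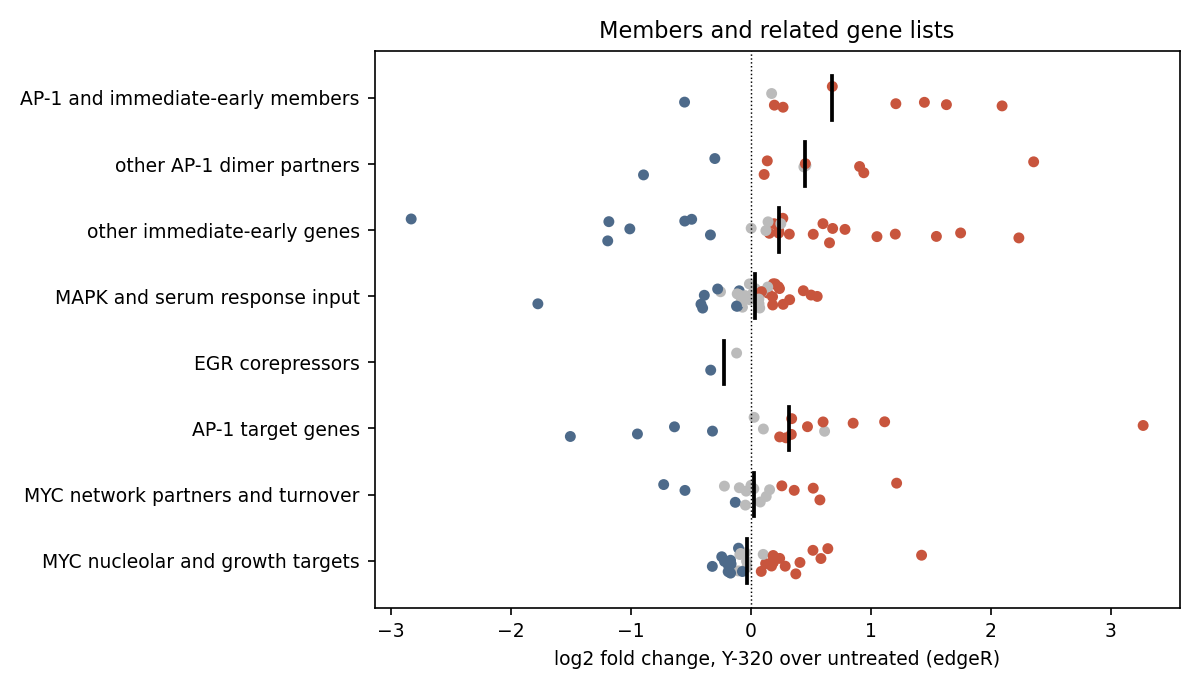
Log2 fold change of every tested member and of every tested gene in the 7 related lists, 1 row per list, with points for genes (red higher, blue lower, grey not past the threshold), a black bar at the median and a dotted line at the median of all genes. The list medians run from -0.23 for the EGR corepressors to 0.45 for the other AP-1 dimer partners, and CCN2 is the lowest point at -2.83.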

How the data were processed

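RNA was sequenced from 3 untreated and 3 Y-320 libraries of HDQ-P1 cells. The authors deposited estimated counts per gene from kallisto 0.46.1 (GRCh38/hg38, from the submitters' processing notes), of which 40.1% were not whole. Counts were rounded. Kallisto splits reads among transcripts that share sequence, so genes with shared 31-base words are less certain. Of 40295 identifiers, 35390 matched a symbol, and the rest held 3.21% to 3.47% of counts. The study's methods combine several unnamed pipelines, so edgeR 4.0.16 (R 4.3.3; filterByExpr with a minimum count of 10 and total of 15, TMM, quasi-likelihood test, Benjamini-Hochberg over 16580 genes) was used, after testing on simulated data. The simulation changed far fewer genes than were called here, so it does not cover so broad a shift. DESeq2 1.42.0, limma 3.58.1 (voom), other filters and scalings, a replicate block and leaving out each library were alternatives. Coordinates and lengths came from GENCODE 44, promoters from RefSeq. The members and lists were chosen with earlier results of these data known. All members were named. From each list up to 4 genes with the largest change past the threshold, a mean of at least 1 CPM and no overlap of groups were named, with the most abundant gene, ATF3 and both EGR corepressors. Some genes that this rule names are not reported here.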

Additional observations from a re-analysis of the deposited data

How the results depend on the processing

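The log2 fold changes of the 9 tested members kept their direction and their side of the threshold under every alternative run, except for FOS. The summed family levels and the shares of FOSL1 and JUND stayed higher in Y-320. Counts of genes past the threshold stayed within 1.5 times of those reported, except in the MAP kinase and serum response input. Both exceptions came from leaving out 1 library: the log2 fold change of FOS ran from 0.089 to 0.303 and passed without Y-320 replicate 1, and the count of lower genes in the MAP kinase and serum response input ran from 5 to 8, the lowest without Y-320 replicate 3. The cause was not tested. With the replicate number as a block, 7 members were higher and 1 lower, FOS had a log2 fold change of 0.17 (edgeR adjusted p = 0.15), and no member's call changed. Deviations of same-numbered libraries correlated at -0.00236, 0.0155 and 0.00222, so no shared deviation by number was seen. Whether same-numbered libraries were prepared together is not known. Requiring an absolute log2 fold change of at least 0.5 left 5 members higher and 1 lower. DESeq2 called 3405 genes higher, against 4336, and 40.3% of all genes. Summing the haplotype rows of IER3 was not run, since the tables used name none. With 3 libraries a group, the exact permutation tests of the family levels could not go below 0.1, and FOSB rests on 16 to 64 counts a library.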
